A study of Mus musculus with 18 samples.

Results

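Collagens and the structural proteins around them were followed in mouse kidney cortex. The group was taken by gene symbol: every row named as a collagen chain (Col, a number, a, a number), plus the matrix proteins Fn1, Lum, Dcn, Bgn, Sparc, Postn, Fbn1, Eln, Vcan, Tnc and Fbln1 and the cross-linking enzymes Lox, Loxl1 and Loxl2. It held 56 of the 15035 measured genes, 42 collagens and 14 others, and all 56 had a value in all 18 libraries. The rule uses gene symbols alone.

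The study compared kidney cortex from 6 groups of 3 mice by RNA sequencing, to describe lupus nephritis and its drug treatment. Vehicle-treated Mrl/Mpj wild type mice were the healthy controls. Mrl/lpr mice carry a mutated Fas gene and develop lymphoproliferation with a lupus-like nephritis. They received vehicle (mice 7, 17 and 36), MMF (1, 14 and 27), FK506 (3, 12 and 24), prednisone (23, 29 and 35) or the multi-target treatment (6, 18 and 39). MMF, mycophenolate mofetil, is an inhibitor of purine synthesis. FK506, or tacrolimus, blocks calcineurin in T cells, and prednisone is a glucocorticoid. The labels name neither the drugs of the multi-target treatment nor any dose, duration, age or sex. Healthy and diseased mice differ by strain as well as by disease, and the tissue is whole cortex.

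Collagens are built from 3 chains wound into a triple helix. Fibrillar collagens, mainly types I, III and V, form the rope-like fibrils of the interstitium and accumulate in renal scarring, where fibroblasts, pericytes and myofibroblasts are their main source. Type IV collagens form the sheet-like network of basement membranes: Col4a1 and Col4a2 chains are found in nearly all of them, whereas Col4a3, Col4a4 and Col4a5 chains form the mature glomerular basement membrane, for which podocytes supply the chains. Small leucine-rich proteoglycans such as decorin and lumican bind fibrils and set their spacing, and lysyl oxidases cross-link them.

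Values are the deposited normalised log2 levels, so that a difference of 1 is a doubling. A gene was called changed when the limma adjusted p (Benjamini-Hochberg over all 15035 genes) was below 0.05. Reads summed over genes ranged from 28939845 to 41066953 per library, and the lowest value of any member stood for 19 reads. Some libraries stood apart. Vehicle mouse 36 gave the highest value of all 18 libraries for 30 of the 56 members, and its tubular injury markers, 8 genes, averaged 4.14 log2 above the healthy mean; in prednisone mouse 23 they averaged 2.98 above. Adipocyte markers averaged 5.42 above healthy in vehicle mouse 17, where Adipoq was at 11.30 against 3.89 and 4.07 in vehicle mice 7 and 36, and urothelial markers were 3.54 above. Adrenal cortex markers averaged 5.11 above healthy in FK506 mouse 12. Podocyte genes were present in every library, with Nphs1 between 10.48 and 11.37.

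Levels were divided by the merged length of all annotated exons of a gene, which can exceed the length of a single transcript. On this scale, the most abundant members over the 18 libraries were Sparc, a collagen-binding glycoprotein (mean log2 level per kilobase of exon 10.98), and Bgn (10.49). Next came Col4a1 (10.40), Col4a2 (10.22), Col18a1 (10.06), Col4a3 (9.98) and Col4a4 (9.80). The main interstitial chains were lower on this scale, with Col1a2 at 7.68, Col1a1 at 7.45 and Col3a1 at 7.17, and the basement membrane chains Col15a1 (6.93), Col7a1 (6.09) and Col4a6 (5.93) lower still. At the other end, 15 members had a mean at or below 5.67 per kilobase, the highest of 13 genes of muscle, eye, ear or the Y chromosome that served as a gauge of low-level reads: Col2a1, Col6a4, Col6a5, Col6a6, Col9a2, Col11a1, Col17a1, Col19a1, Col20a1, Col22a1, Col25a1, Col26a1, Lum, Postn and Vcan. These 13 gauge genes were picked after their values were seen. The labels give no sex. Xist, a transcript of the inactive X chromosome, was at 12.62 to 13.99 over the libraries, and the Y-linked genes at 6.57 to 9.77.

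Vehicle Mrl/lpr mice were compared with healthy mice to describe the disease. All 4 proteoglycans rose, with 3 of 5 glycoproteins and the cross-linker Loxl1, whereas few collagens passed and the type IV chains that did moved in opposite directions. Of the 56 members, 16 passed the test, or 28.57%, against 22.4% of all genes; 13 were higher (15.7% of all genes) and 3 lower (6.76% of all genes). With each library forced to the same distribution (quantile normalization), 8 members were higher and 6 lower (21.2% of all genes called), and the share of higher calls over all genes went from 69.8% to 43.7%, while the median difference over all genes went from 0.09 to -0.07. The non-collagen members had 8 of 14 called, all higher, and the collagens 8 of 42, with 5 higher and 3 lower. The median difference was 1.45 over the 14 non-collagens and 0.20 over the 42 collagens, beside 0.09 over all genes. In whole cortex RNA, fewer cells of a type and less RNA per cell cannot be told apart.

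**Figure D1:**
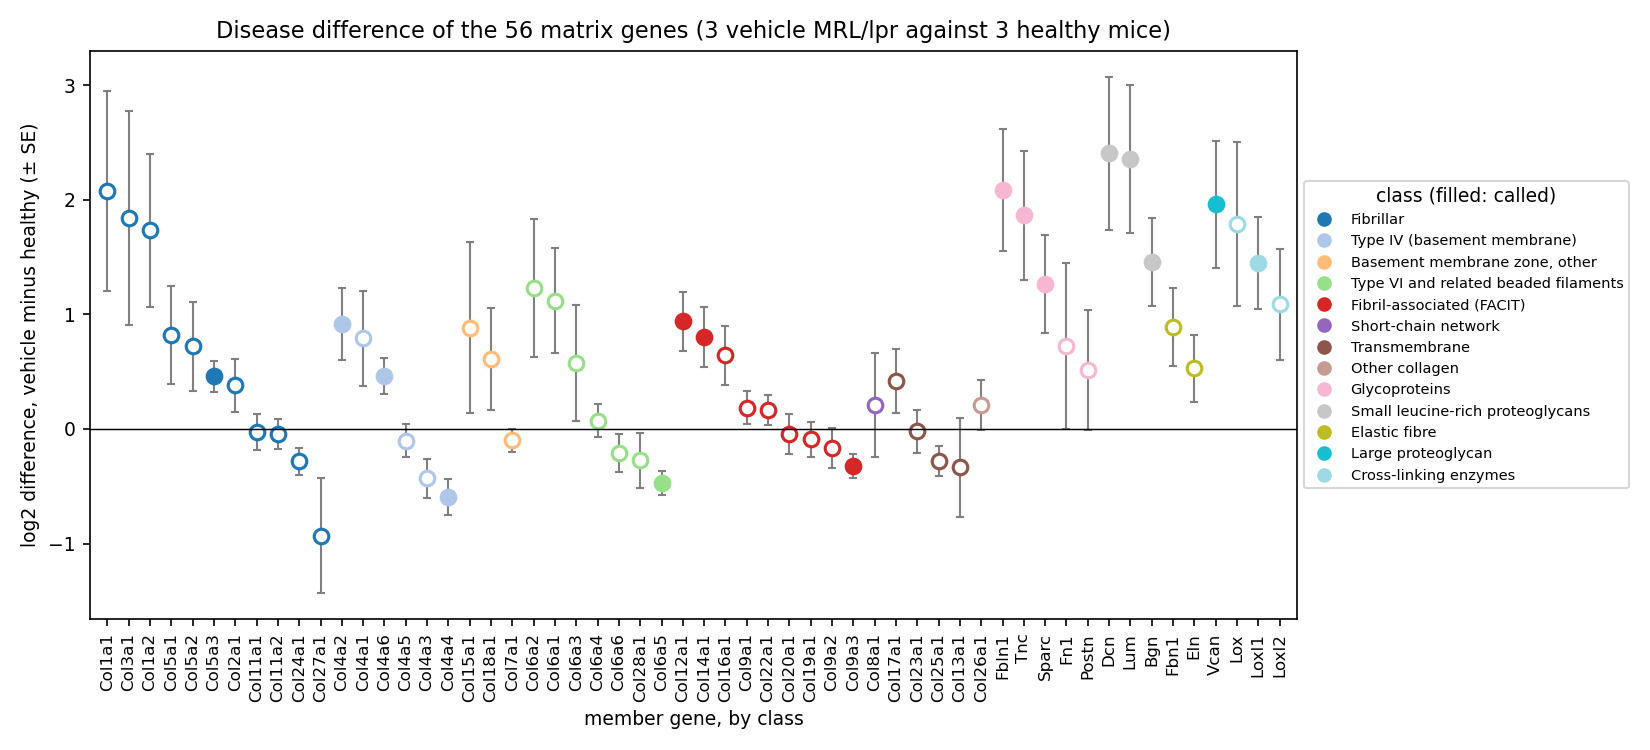
Log2 difference, vehicle minus healthy (y axis, ± SE, 3 against 3 mice), of each of the 56 members (x axis), coloured by class; filled points passed limma at an adjusted p below 0.05. Dcn (2.40), Lum (2.36), Fbln1 (2.08) and Col1a1 (2.08, not filled) lie highest. Col4a4 (-0.59), Col6a5 (-0.47) and Col9a3 (-0.32) are the 3 filled points below 0.

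The calls rested heavily on single mice. Without vehicle mouse 36 only Col6a5 kept its call (9.91% of all genes called), and the median difference over the 56 members went from 0.52 to 0.18; without healthy mouse 2 again only Col6a5 was called (12.1% of all genes). Without healthy mouse 1 there were 5 calls (11.6% of all genes), without healthy mouse 3 there were 6 (12.4%), and with only the 2 groups fitted there were 9 (18.6%), shares of the members near those of all genes. Other settings gave more calls. Without vehicle mouse 7 there were 20 (26.8% of all genes), and with libraries weighted by their fit (limma array weights) 24 (36.7% of all genes). Col1a1 and Col1a2 were among the calls in both. The directions of the 16 called members did not turn under any of these settings.

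Among fibrillar collagens, only Col5a3, a minor fibril chain, was called of 11, and the major chains were higher but uneven and did not pass. Col1a1, a chain of type I collagen, was at 9.83, 9.69 and 10.07 in healthy mice 1, 2 and 3 and at 10.61, 11.07 and 14.13 in vehicle mice 7, 17 and 36. All vehicle mice were above all healthy mice, and mouse 36 stood far above the others. The difference was 2.08 ± 0.87 (SE), with a limma adjusted p of 0.0976, and 0.98 without mouse 36.

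Col1a2, the partner chain of Col1a1, was at 11.10, 10.77 and 11.33 in healthy mice and at 11.94, 12.04 and 14.42 in vehicle mice. The groups were again separate (difference 1.73 ± 0.67, limma adjusted p = 0.0737). Col3a1, the type III chain, was at 10.47, 10.19 and 11.06 in healthy mice and at 11.17, 11.62 and 14.44 in vehicle mice, a difference of 1.84 ± 0.94 (limma adjusted p = 0.165) with mouse 36 again far above the others. The type V chains, which co-assemble with type I and start its fibrils, were less apart. Col5a1 was at 9.69, 9.45 and 9.70 in healthy and 9.77, 9.92 and 11.61 in vehicle mice, whereas Col5a2 (9.37, 9.31 and 9.44 against 9.35, 9.63 and 11.30) overlapped between the groups. The called chain, Col5a3, was at 10.60, 10.63 and 10.55 in healthy and 10.86, 10.98 and 11.32 in vehicle mice (0.46 ± 0.14, limma adjusted p = 0.0267). Col27a1, found in cartilage and some epithelia, was the lowest of the class in its difference, with 12.90, 13.22 and 13.29 in healthy and 12.07, 12.98 and 11.57 in vehicle mice; the groups overlapped (-0.93 ± 0.50, limma adjusted p = 0.188).

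**Figure D2:**
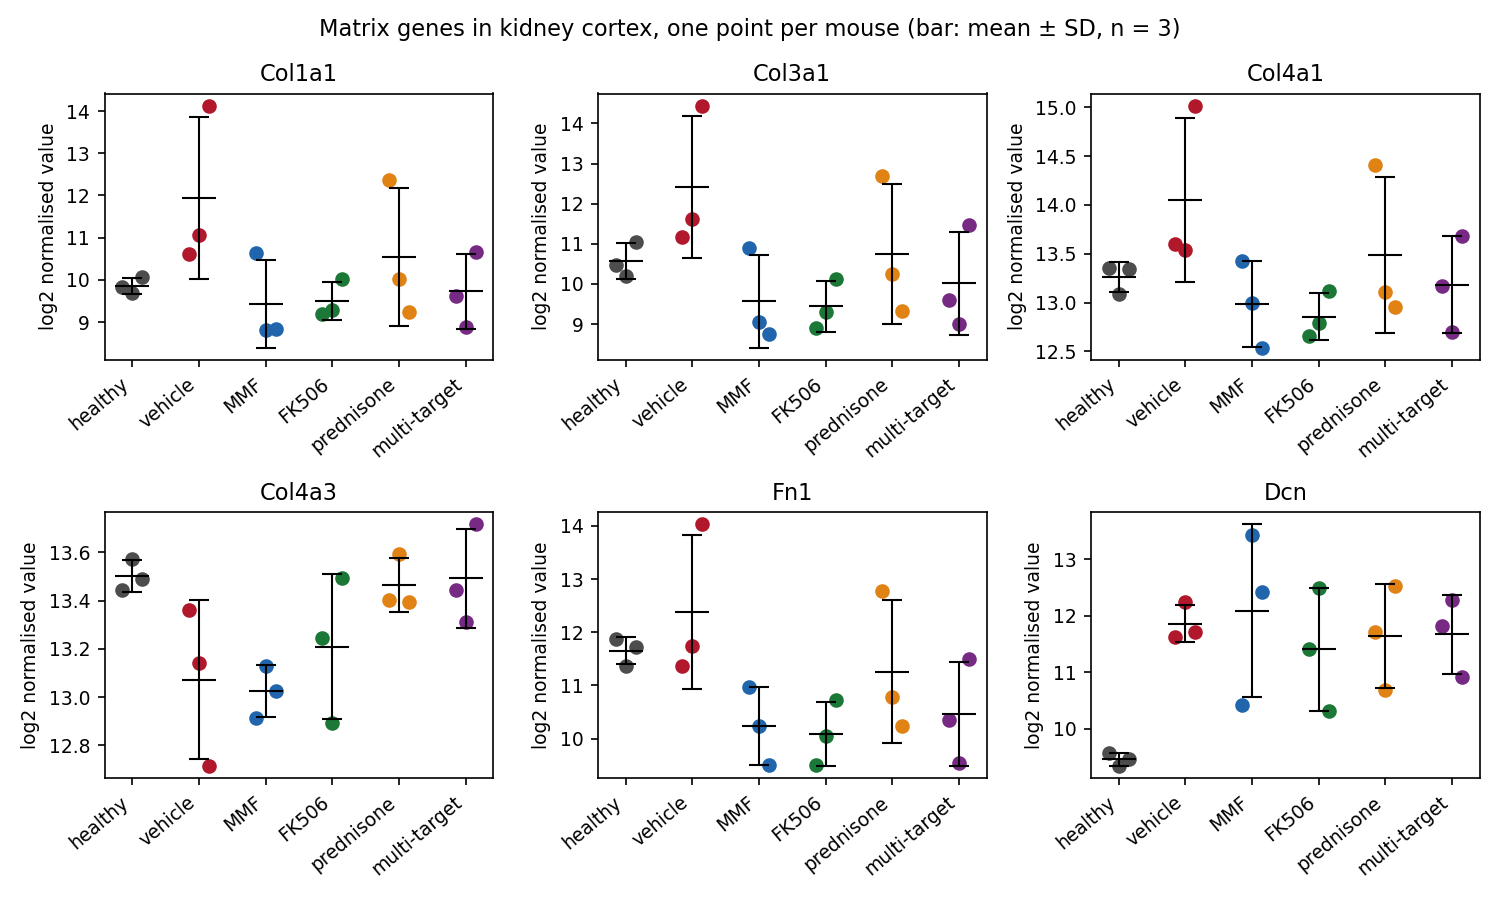
Normalised log2 level (y axis) of 6 matrix genes in the 6 groups (x axis), 1 point per mouse, with the mean and SD of 3 mice as bars. In Col1a1, Col3a1, Col4a1 and Fn1 the highest point is vehicle mouse 36 and the second highest prednisone mouse 23, whereas Dcn is above the healthy level in every Mrl/lpr mouse.

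To show the start regions of 2 interstitial chains described above, the promoter windows of Col1a2 and Col3a1 from RefSeq (GRCm38.p6, 250 bases before to 50 after the start, 5′ to 3′ on the gene's strand) are given, with matches to 3 common promoter motifs on either strand in capitals. The motifs are the GC box with the letters GGGCGG, the CCAAT box and the TATA box with the letters TATAAA. The Col1a2 window lies at chr6:4505368-4505667 on the plus strand and holds 2 GC box and 2 CCAAT box matches; the Col3a1 window lies at chr1:45311288-45311587 on the plus strand and holds 1 TATA box match.
Col1a2: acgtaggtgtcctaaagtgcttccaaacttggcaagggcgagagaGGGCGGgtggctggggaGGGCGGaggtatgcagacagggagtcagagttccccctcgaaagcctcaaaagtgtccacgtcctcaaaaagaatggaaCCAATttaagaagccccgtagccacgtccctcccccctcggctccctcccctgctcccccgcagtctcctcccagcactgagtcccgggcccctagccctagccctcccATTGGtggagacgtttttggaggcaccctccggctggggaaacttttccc
Col3a1: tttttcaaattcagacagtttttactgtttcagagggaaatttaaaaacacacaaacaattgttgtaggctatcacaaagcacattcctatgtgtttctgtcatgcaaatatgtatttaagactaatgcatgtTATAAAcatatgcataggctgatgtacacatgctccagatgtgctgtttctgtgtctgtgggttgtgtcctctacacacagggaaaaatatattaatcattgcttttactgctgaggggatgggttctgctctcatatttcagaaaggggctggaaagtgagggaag
Of the members, 40 of 56 had an entry in that table, with 46 windows. The GC box was in 28 of these windows, or 60.9%, against 35.7% of all 32851 windows of that length; the CCAAT box was in 32.6% against 37.4% and the TATA box in 15.2% against 13.6%. These matches are a description of the letters and do not show that a factor binds.

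Among the 6 type IV chains, Col4a1 and Col4a2 were higher in vehicle mice and Col4a3 and Col4a4 lower. Col4a5 and Col4a6 did not move as a pair. Col4a1 was at 13.35, 13.08 and 13.34 in healthy mice and at 13.60, 13.53 and 15.02 in vehicle mice, and Col4a2 at 12.68, 12.40 and 12.60 against 13.05, 13.01 and 14.37. Neither pair of groups overlapped, and Col4a2 passed the test (0.92 ± 0.31, limma adjusted p = 0.0489) whereas Col4a1 did not (0.79 ± 0.41, limma adjusted p = 0.177). Without vehicle mouse 36 the difference was 0.47 for Col4a2, which was then not called, and 0.31 for Col4a1.

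Of the glomerular chains, Col4a3 and Col4a4 went the other way. Col4a4 was at 13.53, 13.54 and 13.46 in healthy mice and at 13.26, 12.92 and 12.56 in vehicle mice, and it fell by 0.59 on the log2 scale (± 0.16, limma adjusted p = 0.0164). Its neighbour Col4a3 was at 13.45, 13.57 and 13.49 in healthy and 13.36, 13.14 and 12.71 in vehicle mice (-0.43 ± 0.17, limma adjusted p = 0.0789), also without overlap. Without vehicle mouse 36, the lowest mouse of the group in both genes, the differences were -0.42 for Col4a4, no longer called, and -0.25 for Col4a3. Podocyte markers did not go down with them: 3 of 10 were called higher (15.7% of all genes) and 0 lower (6.76% of all genes). Their mean was above healthy by 0.33, 0.50 and 0.24 in vehicle mice 7, 17 and 36. Ptpro, a receptor tyrosine phosphatase of podocytes, was one of the 3 (0.49 ± 0.15, limma adjusted p = 0.0274). Proximal tubule markers were below healthy by 0.91, 0.54 and 2.01 in the same mice, with 2 of 8 called lower (6.76% of all genes). Their part in the Col4a3 and Col4a4 values was not tested.

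The pair Col4a6 and Col4a5, found in Bowman's capsule and some tubular basement membranes, did not move together. Col4a6 was at 8.72, 8.63 and 8.50 in healthy and 8.87, 8.96 and 9.42 in vehicle mice (0.46 ± 0.16, limma adjusted p = 0.0488), and Col4a5 at 11.22, 11.16 and 11.11 against 11.04, 10.92 and 11.22, which overlapped (-0.10 ± 0.14, limma adjusted p = 0.632). Col15a1 and Col18a1, multiplexins of the basement membrane zone, were uneven: Col15a1 was at 10.04, 9.63 and 10.14 in healthy and 9.60, 10.52 and 12.34 in vehicle mice, and Col18a1 at 12.94, 12.82 and 12.90 against 12.89, 12.94 and 14.65. In both, mouse 36 alone stood far above the healthy mice. Neither passed the test, with limma adjusted p of 0.411 and 0.332.

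**Figure D3:**
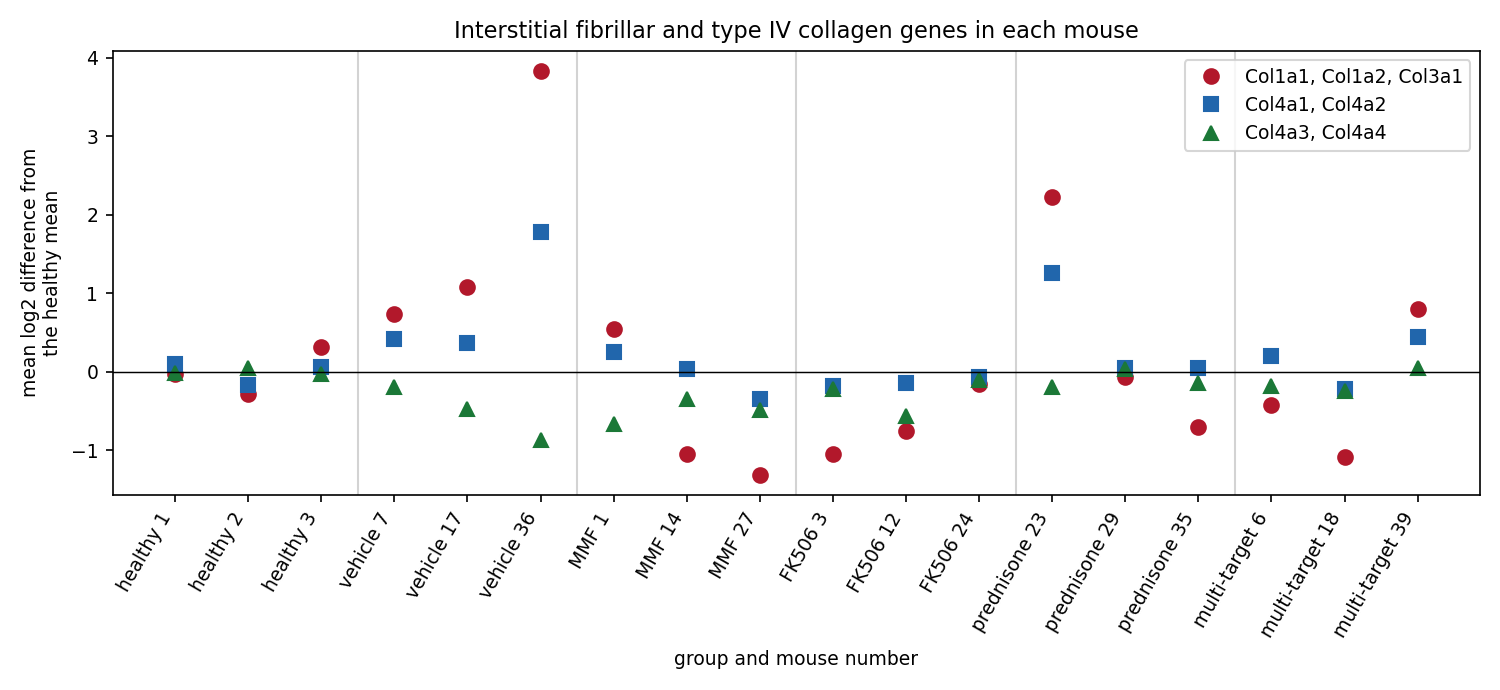
Mean log2 difference from the healthy mean (y axis) in each of the 18 mice (x axis) for 3 sets of collagen genes. In vehicle mouse 36 the interstitial set is at 3.83 and Col4a1 with Col4a2 at 1.78, while Col4a3 with Col4a4 is at -0.87.

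Each of these pairs is transcribed in opposite directions from neighbouring starts on GRCm38 (GENCODE M21). Col4a1 (chromosome 8, 11198423 to 11312826, minus strand) and Col4a2 (11312805 to 11449287, plus strand) overlap by 22 bases at their starts. Col4a4 (chromosome 1, 82448423 to 82586849, minus strand) and Col4a3 (82586921 to 82722059, plus strand) lie 71 bases apart, and Col4a6 and Col4a5 on the X chromosome 1308 bases apart. Because the first 2 pairs share so short a start region, the RefSeq promoter windows of Col4a1, Col4a2 and Col4a4 are printed. The Col4a1 window (chr8:11312777-11313076, minus strand) and the Col4a2 window (chr8:11312555-11312854, plus strand) share 78 bases, given in capitals in both and read from opposite strands. In the Col4a4 window (chr1:82586800-82587099, minus strand) the 179 capital bases lie inside the annotated Col4a3 gene.
Col4a1: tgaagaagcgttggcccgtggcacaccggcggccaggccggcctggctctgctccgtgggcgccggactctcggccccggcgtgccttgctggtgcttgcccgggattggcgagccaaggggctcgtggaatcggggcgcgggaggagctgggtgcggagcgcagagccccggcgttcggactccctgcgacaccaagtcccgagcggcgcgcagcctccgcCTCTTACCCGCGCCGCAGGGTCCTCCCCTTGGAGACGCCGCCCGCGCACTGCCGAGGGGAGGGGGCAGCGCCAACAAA
Col4a2: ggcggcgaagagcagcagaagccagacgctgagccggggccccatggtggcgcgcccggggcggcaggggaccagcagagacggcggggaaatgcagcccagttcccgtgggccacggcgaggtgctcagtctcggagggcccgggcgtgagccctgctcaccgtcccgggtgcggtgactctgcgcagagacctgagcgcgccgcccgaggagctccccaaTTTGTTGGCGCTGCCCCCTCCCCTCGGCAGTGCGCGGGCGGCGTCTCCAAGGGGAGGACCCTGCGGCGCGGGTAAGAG
Col4a4: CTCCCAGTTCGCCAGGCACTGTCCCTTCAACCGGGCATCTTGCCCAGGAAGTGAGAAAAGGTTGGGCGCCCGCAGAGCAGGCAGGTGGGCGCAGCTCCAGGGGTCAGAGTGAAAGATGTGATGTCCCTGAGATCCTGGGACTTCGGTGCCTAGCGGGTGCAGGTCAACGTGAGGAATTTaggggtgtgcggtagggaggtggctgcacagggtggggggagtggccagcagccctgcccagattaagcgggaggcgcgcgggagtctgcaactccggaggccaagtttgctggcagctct
The Col4a1 window holds 1 and the Col4a2 window 3 matches to the GC box, and each holds 1 to the CCAAT box, with matches inside the shared stretch counted in both; the Col4a4 window holds none of the 3 motifs.

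Whether these pairs moved together within groups was measured on the 18 mice as deviations from each group's mean, with exact permutation of mice within groups (46656 orders, 2-sided) and adjustment over 9 gene pairs, of which some were chosen after their values were seen. For Col4a1 and Col4a2, Pearson's r was 0.899 (exact permutation p = 0.00872, adjusted p = 0.0157) and Spearman's rho 0.860 (exact p = 0.00607, adjusted p = 0.0136), with r at 0.772 without the 2 mice farthest from the median. In this and the later values without 2 mice, deviations were still taken from group means that included those mice. Such values therefore do not remove the influence of those mice. Col4a3 and Col4a4 gave r = 0.887 (exact permutation p = 0.000664, adjusted p = 0.00199) and rho = 0.905 (exact p = 0.000514, adjusted p = 0.00154), and r = 0.808 without 2 mice. Col4a5 and Col4a6 did not move together: r was 0.036 (exact permutation p = 0.90, adjusted p = 0.90) and rho 0.026 (exact p = 0.932, adjusted p = 0.932), and r was -0.182 without 2 mice.

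A pair on different chromosomes gave a relation of like size: Col1a1 and Col4a1, on chromosomes 11 and 8, had r = 0.966 (exact permutation p = 0.000343, adjusted p = 0.00154) and rho = 0.938 (exact p = 0.000364, adjusted p = 0.00154), and r = 0.929 without vehicle mouse 36 and prednisone mouse 23. Col1a1 with Col4a3 gave r = -0.319 (exact permutation p = 0.413, adjusted p = 0.465) and rho = -0.261 (exact p = 0.434, adjusted p = 0.488), and r = 0.023 without those 2 mice. Within groups, Col4a1 went with the interstitial chain Col1a1, and the relation of Col1a1 with the glomerular chain Col4a3 did not pass.

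Among the type VI and related beaded filament chains, which form a microfibril around basement membranes, the 3 classical chains had higher means without passing and Col6a5 fell. Col6a1 was at 9.95, 9.49 and 9.90 in healthy and 10.22, 10.55 and 11.93 in vehicle mice (1.12 ± 0.46, limma adjusted p = 0.0908). Col6a2 differed by 1.23 ± 0.60 (limma adjusted p = 0.15), and Col6a3, at 10.49, 10.06 and 10.27 against 10.17, 10.69 and 11.70, overlapped between groups. Col6a5 was at 9.12, 9.09 and 9.37 in healthy and 8.63, 8.83 and 8.69 in vehicle mice (-0.47 ± 0.10, limma adjusted p = 0.00544). It was the only member called without vehicle mouse 36, and the value in every Mrl/lpr mouse, from 8.55 to 8.83, was below all 3 healthy mice. Its level per kilobase, 5.56, lay within the range of the 13 gauge genes, some of which also differed between vehicle and healthy mice: Pde6a, a retinal phosphodiesterase, by -1.72 and the Y-linked Eif2s3y by -1.39. What share of the Col6a5 reads comes from the gene itself was not tested.

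The fibril-associated collagens, which sit on the surface of fibrils, had 2 of 9 higher and 1 lower. Col12a1 was at 9.44, 9.23 and 9.31 in healthy and 9.81, 9.99 and 10.99 in vehicle mice (0.94 ± 0.26, limma adjusted p = 0.0185). Col14a1 was at 11.70, 11.14 and 11.64 against 12.31, 12.08 and 12.51 (0.81 ± 0.26, limma adjusted p = 0.0393), with vehicle mice close to one another. Col9a3, best known from cartilage, was at 8.84, 8.93 and 8.92 in healthy and 8.52, 8.54 and 8.66 in vehicle mice (-0.32 ± 0.10, limma adjusted p = 0.0381). None of the 4 transmembrane collagens, Col8a1 or Col26a1 passed the test. Col8a1 was at 9.37, 9.33 and 11.20 in vehicle mice, so that 2 were below and 1 above the healthy values of 9.88, 9.55 and 9.86.

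The small leucine-rich proteoglycans were called in 3 of 3. Dcn, decorin, was at 9.57, 9.33 and 9.46 in healthy mice and at 11.62, 12.24 and 11.71 in vehicle mice, a difference of 2.40 ± 0.67 (limma adjusted p = 0.0207). Here mouse 36 did not lead, and the difference without it was 2.48, though no longer called. Dcn also lost its call without vehicle mouse 17, its highest vehicle mouse, and with any single healthy mouse left out. Lum, lumican, was at 5.89, 5.44 and 6.09 against 7.68, 7.84 and 8.98 (2.36 ± 0.64, limma adjusted p = 0.0184). Bgn, biglycan, was at 12.77, 12.34 and 12.85 against 13.98, 13.69 and 14.67 (1.46 ± 0.38, limma adjusted p = 0.015). In all 3 genes every vehicle mouse was above every healthy mouse. Vcan, the large proteoglycan versican, was at 4.88, 5.09 and 5.15 in healthy and 5.64, 6.67 and 8.70 in vehicle mice (1.96 ± 0.55, limma adjusted p = 0.0219), starting from the lowest level per kilobase of all members.

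Among the glycoproteins, Fbln1, Tnc and Sparc were called higher, and Fn1 and Postn were not. Fbln1, fibulin of elastic and basement membrane matrix, was at 7.69, 7.56 and 8.16 in healthy and 9.44, 9.84 and 10.37 in vehicle mice (2.08 ± 0.53, limma adjusted p = 0.0137). Tnc, tenascin C of remodelling tissue, was at 8.39, 8.43 and 8.29 against 9.16, 9.54 and 11.997 (1.86 ± 0.56, limma adjusted p = 0.0286), and Sparc at 12.50, 12.44 and 12.72 against 13.15, 13.29 and 15.02 (1.27 ± 0.43, limma adjusted p = 0.0469). Fn1, fibronectin, differed from these. Its vehicle mice 7 and 17 were at 11.36 and 11.74, within the healthy values of 11.88, 11.37 and 11.72 or just below them, and only mouse 36, at 14.03, was higher. The difference was 0.72 ± 0.72 (limma adjusted p = 0.49) and -0.10 without mouse 36. Postn, periostin, was at 6.51, 8.73 and 8.69 in vehicle mice, 1 below and 2 above healthy values of 7.50, 7.29 and 7.59.

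The cross-linking enzymes and elastic fibre genes were higher in all vehicle mice. Loxl1 was at 9.39, 8.96 and 9.39 in healthy and 10.49, 10.30 and 11.32 in vehicle mice (1.45 ± 0.40, limma adjusted p = 0.0201). Lox was at 7.97, 8.05 and 8.08 against 9.73, 9.09 and 10.65 (1.79 ± 0.72, limma adjusted p = 0.0838), and Loxl2 at 9.68, 9.66 and 9.97 against 10.31, 10.27 and 11.99 (1.09 ± 0.48, limma adjusted p = 0.116). Only Loxl1 passed. Fbn1, fibrillin of microfibrils, was at 9.99, 9.82 and 9.88 against 10.13, 10.47 and 11.76, and Eln, elastin, at 8.36, 8.69 and 8.59 against 8.75, 8.91 and 9.56; neither was called (limma adjusted p of 0.0742 and 0.202).

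Groups did not overlap in 25 members that were higher (44.6%, against 32.6% of all genes) and in 6 that were lower (10.7%, against 19.8%). Fibroblast markers were called higher in 6 of 11, among them Dpt (2.09), Pi16 (1.16) and Thy1 (2.61), the last also a T cell gene in mice, with a summed log2 level of 12.02 to 12.33 in healthy and 13.06 to 13.41 in vehicle mice. Myofibroblast and smooth muscle markers were called higher in 5 of 9, including Actg2 (1.20), Tagln (2.07) and Acta2 (1.59), with sums of 11.78 to 12.07 in healthy and 12.40 to 13.81 in vehicle mice. Macrophage markers moved further: 9 of 10 were called higher, with a median difference of 3.47, among them the protease Ctss (4.74) and the Fc receptor Fcgr3 (3.48), and sums of 12.20 to 12.38 in healthy and 14.63 to 15.54 in vehicle mice. Tubular injury markers were called higher in 3 of 8, with a median of 2.40. None of these markers was at 0, and their part in the matrix differences was not tested. Over all genes, 15.7% were called higher in the same comparison.

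Other genes of the pathway were read from 3 lists, beside 15.7% of all genes called higher and 6.76% lower. Of 27 collagen synthesis and processing genes, 2 were higher and 3 lower, with a median difference of 0.12: the procollagen peptidase Adamts2 was higher by 1.64 and the collagen galactosyltransferase Glt25d1 by 0.61, whereas Adamts3 was at -1.002, the prolyl hydroxylase Leprel1 at -1.25 and Colgalt2 at -0.89. Among 23 basement membrane partners, 1 was higher, Smoc1 (0.91), and 1 lower, the laminin chain Lamc3 (-0.77). Fibril partners had 7 of 24 higher and 0 lower, with a median of 0.74 beside 0.09 over all genes, led by Tgfbi (2.48), Loxl3 (1.56) and Matn2 (1.55).

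The fibrillar and type IV classes were then set side by side. The median difference, vehicle minus healthy, was 0.46 over the 11 fibrillar chains and 0.18 over the 6 type IV chains. Per mouse, the fibrillar median minus the type IV median, each against the healthy mean, was 0.12, 0.25 and 0.30 in vehicle mice 7, 17 and 36 and between -0.07 and 0.12 in healthy mice. With Col7a1, Col15a1 and Col18a1 counted with type IV the gap between the 2 class medians vanished, at -0.0017. Both classes were uneven within: differences ran from -0.93 to 2.08 among fibrillar chains and from -0.59 to 0.92 among type IV chains. As means of pairs, Col4a1 with Col4a2 stood 0.41, 0.36 and 1.78 above healthy in mice 7, 17 and 36. Col4a3 with Col4a4 stood at -0.19, -0.48 and -0.87. The mean of Col1a1, Col1a2 and Col3a1 was 0.74, 1.08 and 3.83 above healthy in the same mice.

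**Figure D4:**
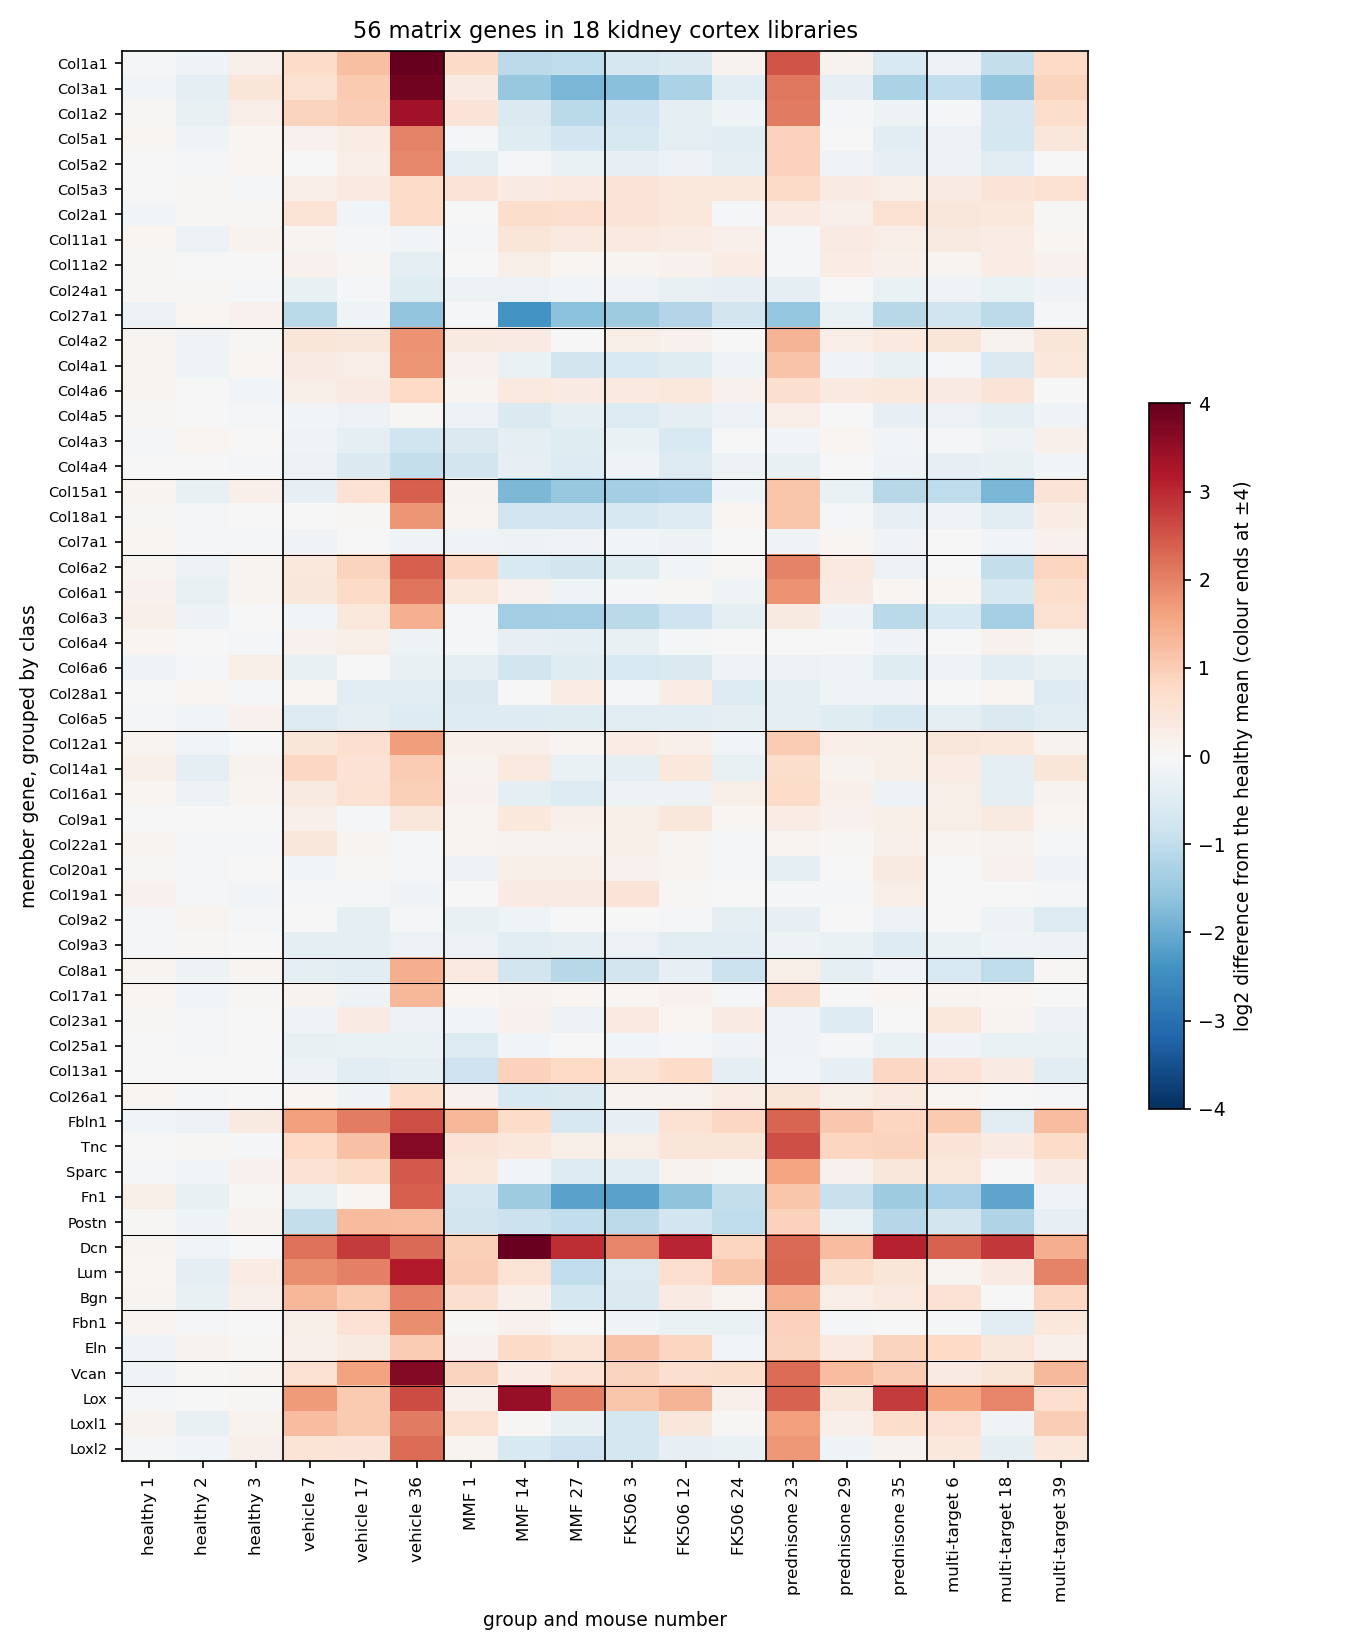
Log2 difference from the healthy mean (colour, ending at 4 in either direction) of the 56 members (rows, grouped by class) in 18 mice (columns). Vehicle mouse 36 and prednisone mouse 23 are red for most interstitial and glycoprotein genes, and the Dcn row is red in every Mrl/lpr mouse.

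Each drug group was compared with the vehicle group to see what treatment did to the matrix genes; the 4 comparisons share the same 3 vehicle mice. None of the 56 members passed the limma test in any of them. Over all genes, 1.58% were called with MMF and 0% with FK506, prednisone or multi-target treatment. At an unadjusted p below 0.05, 28 of the 56 members were counted with MMF, 26 with FK506, 2 with prednisone and 22 with multi-target treatment. Of all 15035 genes, 4491, 2987, 474 and 2341 were counted in the same order. Most differences were below 0: 42 of 56 members with MMF, 40 with FK506, 37 with prednisone and 39 with multi-target treatment, whereas 56.0%, 52.2%, 44.0% and 53.5% of all genes were. All 3 drug mice were below all 3 vehicle mice for 20 members with MMF (12.4% of all genes), 22 with FK506 (12.2%), 0 with prednisone (1.3%) and 10 with multi-target treatment (9.54%).

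The median difference over the members was -0.49 with MMF, -0.58 with FK506, -0.21 with prednisone and -0.38 with multi-target treatment, and over all genes -0.05, -0.01, 0.03 and -0.02. Vehicle mouse 36 carried part of this. Without it the medians were -0.31, -0.34, 0.03 and -0.13. MMF mouse 1 also decided the calls: without it, 22 members were called against vehicle, 19 lower and 3 higher, or 39.3% beside 36.8% of all genes, and without vehicle mouse 7 there were 18, all lower, or 32.1% beside 12.9%. With libraries weighted by their fit (limma array weights), 27 members were called with MMF (48.2%, beside 44.9% of all genes), 17 with FK506 (30.4%, beside 15.5%), 0 with prednisone (0% of all genes) and 12 with multi-target treatment (21.4%, beside 18.5%). With MMF and multi-target treatment these shares are near those of all genes.

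Col3a1 and Col1a1 had the largest differences of the 56 members with each treatment. Col1a1 was at 10.63, 8.81 and 8.85 in MMF mice 1, 14 and 27, at 9.18, 9.28 and 10.01 in FK506 mice 3, 12 and 24, at 12.37, 10.01 and 9.24 in prednisone mice 23, 29 and 35, and at 9.61, 8.89 and 10.67 in multi-target mice 6, 18 and 39. Against vehicle values of 10.61, 11.07 and 14.13, the FK506 mice were all lower, and 1 mouse of each other group overlapped the vehicle range. The differences were -2.51, -2.44, -1.40 and -2.21 in that order, each ± 0.87, with limma adjusted p of 0.0926, 0.179, 0.943 and 0.257. Without vehicle mouse 36 they were -1.41, -1.35, -0.30 and -1.12; without MMF mouse 1 the MMF difference was -3.11 (limma adjusted p = 0.0215).

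Col3a1 followed, at 10.90, 9.06 and 8.75 with MMF, 8.90, 9.29 and 10.13 with FK506, 12.68, 10.25 and 9.32 with prednisone and 9.60, 8.99 and 11.46 with multi-target treatment. Of these 12 values, 8 lay under the healthy range of 10.19 to 11.06. The differences from vehicle were -2.84, -2.97, -1.66 and -2.40, each ± 0.94, and -1.83, -1.96, -0.65 and -1.38 without vehicle mouse 36. Col1a2 differed by -2.11, -2.18, -1.13 and -1.75, each ± 0.67. The prednisone differences of these chains were the smallest of the 4, and its mice were the most uneven: prednisone mouse 23 stood at 12.37, 13.14 and 12.68 for Col1a1, Col1a2 and Col3a1, above every mouse but vehicle mouse 36.

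Fn1 was at 10.98, 10.23 and 9.51 with MMF, 9.51, 10.04 and 10.72 with FK506, 12.77, 10.78 and 10.23 with prednisone and 10.35, 9.54 and 11.50 with multi-target treatment. All MMF and FK506 mice were below all healthy mice, whose lowest was 11.37. The differences from vehicle were -2.14, -2.29, -1.12 and -1.92, each ± 0.72, with limma adjusted p of 0.087, 0.171, 0.943 and 0.244. Against healthy mice none of these passed the test either. Bgn, Loxl1, Lum, Sparc and Col12a1 had lower values in all MMF and FK506 mice than in any vehicle mouse; the smallest limma adjusted p of a member was 0.0589 with MMF, for Bgn (-1.41 ± 0.38), and 0.171 with FK506, also reached by Bgn (-1.50 ± 0.38).

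No type IV chain passed the test, and Col4a1 was further below vehicle than Col4a3 or Col4a4 with each treatment. Col4a1 was at 13.42, 12.998 and 12.54 with MMF, 12.66, 12.79 and 13.12 with FK506, 14.41, 13.11 and 12.95 with prednisone and 13.17, 12.70 and 13.68 with multi-target treatment, giving differences from vehicle of -1.07, -1.20, -0.56 and -0.87, each ± 0.41. Col4a3 was at 12.91, 13.13 and 13.03 with MMF, 13.24, 12.89 and 13.49 with FK506, 13.40, 13.59 and 13.40 with prednisone and 13.45, 13.31 and 13.72 with multi-target treatment. The 3 prednisone mice were above all vehicle mice, and the MMF mice lay within the vehicle range of 12.71 to 13.36. Its differences were -0.05, 0.14, 0.39 and 0.42, each ± 0.17, with limma adjusted p of 0.943 for prednisone and 0.264 for multi-target treatment. Col4a4 gave 0.07, 0.30, 0.43 and 0.35, each ± 0.16; the MMF value turned to -0.11 without vehicle mouse 36.

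**Figure D5:**
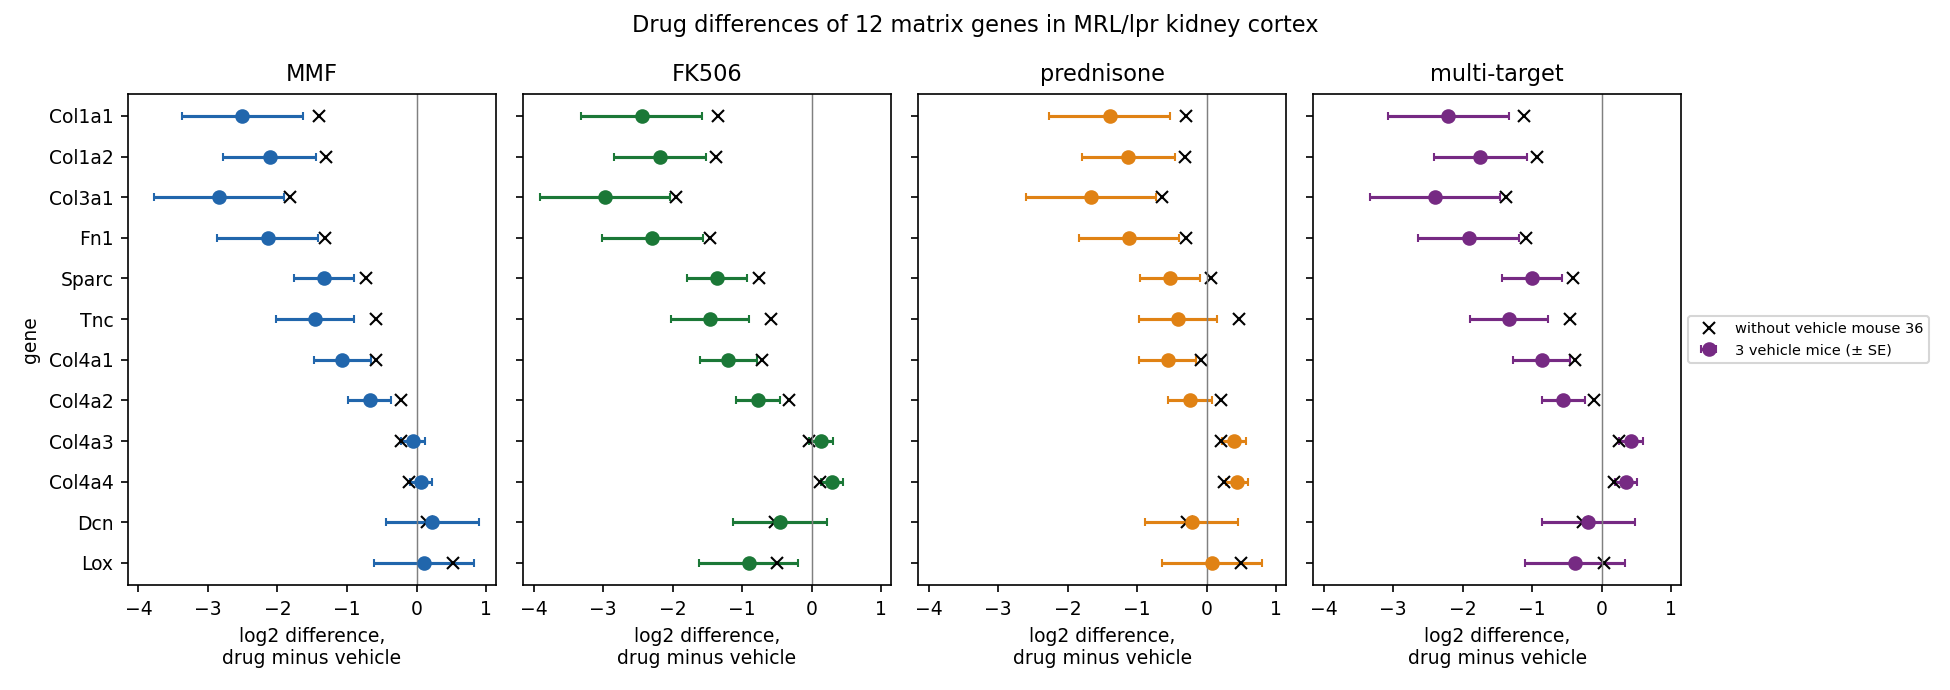
Log2 difference, drug minus vehicle (x axis), of 12 matrix genes (y axis) in 4 drug groups; points with bars show 3 against 3 mice ± SE, crosses the same difference without vehicle mouse 36. Crosses lie closer to 0 than the points for Col1a1, Col1a2, Col3a1, Fn1 and Col4a1 in all 4 groups, and for Dcn points and crosses nearly coincide.

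Dcn and Lox stood apart from the collagens. Dcn was at 10.41, 13.42 and 12.42 with MMF, 11.42, 12.49 and 10.31 with FK506, 11.71, 10.68 and 12.52 with prednisone and 11.82, 12.27 and 10.91 with multi-target treatment. Every treated mouse was above every healthy mouse, whose highest was 9.57. Against vehicle it differed by 0.23, -0.45, -0.22 and -0.19, each ± 0.67, differences small beside the range from 10.41 to 13.42 within the MMF group. In the MMF, FK506 and multi-target groups the mouse with the lowest Dcn (1, 24 and 39) was the one with the highest Col1a1.

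Over the 18 mice, as deviations from group means, Col1a1 with Dcn gave r = -0.454 (exact permutation p = 0.0884, adjusted p = 0.114) and rho = -0.519 (exact p = 0.0616, adjusted p = 0.0792), and r = -0.650 without vehicle mouse 36 and prednisone mouse 23. The relation did not pass. Dcn with Lox gave r = 0.844 (exact permutation p = 0.00472, adjusted p = 0.0106) and rho = 0.709 (exact p = 0.0141, adjusted p = 0.0254), and r = 0.711 without MMF mice 1 and 14. Lox was highest of all 18 mice in MMF mouse 14 (11.51), followed by prednisone mouse 35 (10.82), both mice of high Dcn. Proximal tubule markers were 1.84 and 1.91 below healthy in those mice and 0.47 below in MMF mouse 1, where Dcn was 10.41. They were furthest below, by 2.01, in vehicle mouse 36, where Dcn was 11.71. Adipocyte markers were 1.16 above healthy in MMF mouse 14, 0.25 above in prednisone mouse 35 and 0.05 below in MMF mouse 1. In vehicle mouse 17, with Dcn at 12.24, they were 5.42 above. The part of either marker set in the Dcn values was not tested.

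Markers moved with the drug groups as well. Fibroblast markers had medians of -0.93, -0.77, -0.40 and -0.47 in the MMF, FK506, prednisone and multi-target comparisons with vehicle, with 1 of 11 called lower with MMF, Pi16 (-1.25 ± 0.23, limma adjusted p = 0.0429), and 0 with the others. Their summed log2 level was 12.08 to 12.47 with MMF, 12.05 to 12.66 with FK506, 12.42 to 12.99 with prednisone and 12.13 to 12.76 with multi-target treatment. Those sums were all below the vehicle range and overlapped or lay above the healthy one. Macrophage markers had medians of -1.80, -1.25, -0.62 and -1.38 in the same order, with 4 of 10 called lower with MMF, among them Mrc1 (-1.13), and 0 with the others. Tubular injury markers had medians of -2.19, -2.19, -0.76 and -1.14, with none of 8 called. The part of these markers in the matrix values was not tested. Over all genes, 1.58% were called with MMF and 0% with the other treatments. Of the pathway lists, Glt25d1 (-0.94), the basement membrane linker Nid1 (-1.20) and Loxl3 (-1.25) were called lower with MMF, and no gene of the 3 lists was called with the other treatments.

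The multi-target treatment was compared with each single drug. None of the 56 members passed the limma test in any of these 3 comparisons, and neither did any other gene (0% called). At an unadjusted p below 0.05 there were 2 of the 56 members against MMF, Col4a3 (0.47 ± 0.17, limma adjusted p = 0.641) and Col6a4 (0.32 ± 0.14, limma adjusted p = 0.648), and 0 against FK506 or prednisone. Of all 15035 genes there were 1126, 61 and 503. With array weights 15 members were called against MMF (26.8%, beside 46.1% of all genes), 5 against FK506 (8.93%, beside 13.6%) and 0 against prednisone.

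Each treated group was also compared with the healthy mice, which all 4 comparisons share. With MMF 5 members were called (15.9% of all genes): Dcn was higher by 2.63 ± 0.67 (limma adjusted p = 0.0216), and Col4a4 (-0.52), Col6a5 (-0.51), Col6a6 (-0.52) and Col9a3 (-0.36) were lower. With FK506 2 were called (7.27% of all genes), Col6a5 (-0.40) and Col9a3 (-0.36), both lower. With prednisone 4 were called (16.7% of all genes), Dcn (2.19), Col4a6 (0.49) and Col5a3 (0.45) higher and Col6a5 (-0.51) lower. With multi-target treatment 2 were called (6.98% of all genes), Col5a3 higher (0.48) and Col6a5 lower (-0.47). Col6a5 was called in all 4 of these comparisons, which share their healthy mice. The members' shares of calls, 2 to 5 of 56, were below the share of all genes with each treatment. Leaving out single mice, the counts ranged from 1 to 10 with MMF, 0 to 4 with FK506, 1 to 4 with prednisone and 0 to 2 with multi-target treatment; the 10 came without MMF mouse 1, where 38.6% of all genes were called. Array weights gave 29, 28, 14 and 32, or 51.8%, 50%, 25% and 57.1% of the members beside 59.1%, 56.9%, 37.9% and 66.0% of all genes.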

How the data were processed

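RNA of kidney cortex from 18 mice, 3 in each of 6 groups, was sequenced after column purification and TruSeq library preparation, per the labels' protocols. The deposited values are log2 expression levels per gene symbol, normalised by the authors; the submitters' processing notes name limma and mm10. An aligner is not given in the sources used here. By the steps between low values, 75.0% to 75.5% of genes are whole reads times 1 factor per library, within 0.001 reads, which gave the depths; the other genes are not.

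Deposited log2 values entered limma 3.58.1 (R 4.3.3) unchanged: group means over all 18 libraries, 12 residual degrees of freedom, mean-dependent prior variance, 12 comparisons, Benjamini-Hochberg adjustment over 15035 genes at 0.05, with no filter and no pseudocount. The script was tested on simulated data. Levels per kilobase use GENCODE M21 exon lengths, merged over all transcripts of a gene. Members, classes, gene lists and pairs were chosen with earlier results of these data known. Every member may be named; genes of other lists are up to 3 with the smallest p per list and comparison, plus markers of other tissues. The 13 gauge genes, and among list genes Nphs1, Colgalt2 and, in disease, Glt25d1, were picked after their values were seen. Col8a2, Col10a1 and Col21a1 were not analysed here. Alternatives were quantile normalization, leaving out the lowest 25% of genes, a pseudocount of 8, array weights, no variance trend, only the 2 groups compared, vehicle mouse 17 with FK506 mouse 12 left out, and each mouse left out in turn.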

Additional observations from a re-analysis of the deposited data

Results flagged for a closer look

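Col26a1, a minor collagen at a level per kilobase within the range of the gauge genes, moved in opposite directions against the vehicle mean with 2 treatments: every multi-target mouse was below it, by 0.203 on average, and every prednisone mouse above it, by 0.165. The values were 8.22, 8.13 and 8.11 in multi-target and 8.64, 8.39 and 8.54 in prednisone mice, a difference of -0.368. The vehicle mice themselves ranged from 7.97 to 8.88, so both sets of values lie inside the vehicle spread. The direction against vehicle rested on vehicle mouse 36, the highest of the group: without it the multi-target difference was 0.059, above 0 as with prednisone. In limma the direct difference was -0.37 ± 0.22 with an adjusted p of 0.993.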

How the results depend on the processing

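No paired analysis was possible because the replicate numbers in the labels name single mice and the groups compared share fewer than 2 of them. With 3 mice against 3, the calls depended on single mice: leaving out each in turn, members called ranged from 1 to 20 for disease, 0 to 22 for MMF, 0 to 0 for FK506, prednisone and multi-target against vehicle, 0 to 2 for multi-target against MMF, 0 to 0 against FK506 and against prednisone, and, against healthy, 1 to 10 for MMF, 0 to 4 for FK506, 1 to 4 for prednisone and 0 to 2 for multi-target. The fibrillar minus type IV gap ranged from 0.15 to 0.38 for disease, -0.66 to 0.19 for MMF, -0.31 to 0.074 for FK506, -0.47 to -0.098 for prednisone and -0.091 to 0.15 for multi-target. With all mice, the MMF minus vehicle class medians were -0.44 for fibrillar and -0.24 for type IV chains. Array weights, whose estimation stopped before convergence, called 24 members for disease (36.7% of all genes). They called 27 for MMF, 17 for FK506, 12 for multi-target (44.9%, 15.5% and 18.5% of all genes), 15 and 5 for multi-target against MMF and FK506 (46.1% and 13.6%), and 29, 28, 14 and 32 for MMF, FK506, prednisone and multi-target against healthy (59.1%, 56.9%, 37.9% and 66.0%). Fitting only the 2 groups gave 9 for disease (18.6% of all genes) and 15, 9 and 5 for FK506, prednisone and multi-target against healthy (24.4%, 27.3% and 21.5%). Without vehicle mouse 17 and FK506 mouse 12 the 4 comparisons with healthy gave 2, 0, 2 and 1, and the class gap was 0.38 for disease, 0.15 for MMF, -0.10 for FK506, -0.22 for prednisone and -0.091 for multi-target. Against healthy, 1 member was called for FK506 without the lowest 25% of genes or with a pseudocount of 8, and 1 for multi-target without the lowest 25%, with quantile normalization or without the variance trend. The class gap was 0.44, -0.50, -0.55, -0.47 and -0.51 for disease, MMF, FK506, prednisone and multi-target with means in place of medians, and -0.0017 for disease with Col7a1, Col15a1 and Col18a1 added to type IV. Without vehicle mouse 36, 7 members turned direction in disease, 7 with MMF, 9 with FK506, 16 with prednisone and 8 with multi-target treatment, none of them called with it. Among them were Fn1 (-0.10) and Col8a1 (-0.41) in disease, Col4a4 with MMF (-0.11), and Col4a2 (0.20), Tnc (0.46) and Col18a1 (0.21) with prednisone. The direction also turned for Col4a4 with MMF without MMF mouse 14 (-0.027); over all mice left out in turn, Fn1 in disease ranged from -0.10 to 1.23, Col4a4 with MMF from -0.11 to 0.24 and Col4a2 with prednisone from -0.58 to 0.20, and the cause was not tested.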
